A study of Mus musculus with 8 samples.

Results

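The genes described here are grouped as genes of the mucosal surface of the gut or of the lymphocytes that patrol it. They are 8 genes named at regions of changed H3K27me3. Il22ra1, Itgb6, Serpina3a, Serpina3b and Serpina3c are grouped here as genes used by epithelium, and Klrb1c, Klrb1b and Ccr9 as genes of lymphocytes. Whether the grouping holds in these cells was not examined. H3K27me3, the trimethylation of histone H3 at lysine 27, was profiled by chromatin immunoprecipitation and sequencing in jejunal crypt epithelial cells of female mice. Of the samples, 4 were controls, labelled Control/WT, and 4 were double knockouts (DKO) that had lost Kdm6a and Kdm6b, the genes of the H3K27 demethylases UTX and JMJD3. Both groups are labelled as taken 7 days after ablation. The mouse strain, the age, and the promoter and cell type that drove the ablation are not stated in the labels. The members were found as every region of the authors' deposited table whose overlapping or flanking gene names include one of them. This gave 7 of the 378 regions listed, 5 up and 2 down, and all 8 genes were named at least once.

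These genes were chosen because the table lists them, so their values describe them and test nothing. Listing in the table required a false discovery rate (FDR) under 0.05, and the table's p-values and FDRs imply 58963 regions tested, of which 0.641% were listed, 0.438% as up and 0.204% as down. Nothing is read from the members' count against those shares, since the same comparison supplied the members. No value per sample was analysed here, so neither depth, nor replicate spread, nor a standard error can be given for any value below. Up and down are the table's own words, and which group is its reference is not stated there. H3K27me3 is not a measure of expression, so whether the cells expressed epithelial or lymphocyte marker genes was not examined.

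H3K27me3 is laid down by Polycomb repressive complex 2 over genes that a cell keeps silent, and UTX and JMJD3 remove it. In the gut, interleukin 22 made by lymphocytes acts on epithelial cells through a receptor of Il22ra1 and Il10rb that signals through STAT3 and induces antimicrobial proteins. Integrin beta 6 pairs with the alpha v chain on epithelial cells and releases active TGF-beta from its latent form. Serpins of clade A are mostly secreted, and many of them inhibit serine proteases. The mouse genome carries an expanded cluster of Serpina3 genes. The Klrb1 genes encode C-type lectin-like receptors of natural killer cells, NK1.1 in the case of Klrb1c and an inhibitory receptor in the case of Klrb1b. Ccr9 is the receptor for the chemokine Ccl25, which draws T cells to the small intestine.

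Promoter sequences show which starts the regions reach. RefSeq promoters (build GRCm38.p6, 250 bases before to 50 after a gene's first start site) were found for all 8 genes. The first start site is the most upstream one in the promoter set. It can lie inside the outer end of the RefSeq gene, as at Serpina3c. The promoters of Serpina3a, Serpina3b and Klrb1c lay wholly inside a changed region. That of Il22ra1 lay partly inside, with its first 92 bases. The promoter of Slc6a20a, an amino acid transporter gene, is shown because it lies in the region that the table also assigns to Ccr9. Each is printed 5′ to 3′ on the gene's strand, with CG dinucleotides, the sites of DNA methylation and the letters that define CpG islands, in capitals.
Serpina3a: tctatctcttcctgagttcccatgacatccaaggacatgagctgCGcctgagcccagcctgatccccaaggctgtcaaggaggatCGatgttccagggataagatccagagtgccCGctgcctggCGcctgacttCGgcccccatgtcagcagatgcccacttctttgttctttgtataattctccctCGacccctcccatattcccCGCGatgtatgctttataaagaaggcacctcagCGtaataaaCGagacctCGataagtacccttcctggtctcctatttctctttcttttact
Serpina3b: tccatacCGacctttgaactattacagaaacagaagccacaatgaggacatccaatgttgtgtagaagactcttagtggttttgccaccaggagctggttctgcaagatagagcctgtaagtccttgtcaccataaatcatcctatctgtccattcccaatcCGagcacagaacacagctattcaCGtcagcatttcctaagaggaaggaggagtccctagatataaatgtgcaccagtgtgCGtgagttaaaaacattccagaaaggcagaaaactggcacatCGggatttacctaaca
Klrb1c: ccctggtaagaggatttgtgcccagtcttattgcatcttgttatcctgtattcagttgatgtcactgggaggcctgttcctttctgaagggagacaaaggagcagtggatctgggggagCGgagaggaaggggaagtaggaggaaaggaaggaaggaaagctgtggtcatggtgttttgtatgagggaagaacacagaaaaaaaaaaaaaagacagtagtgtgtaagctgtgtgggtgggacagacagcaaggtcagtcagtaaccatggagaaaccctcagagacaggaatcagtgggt
Il22ra1: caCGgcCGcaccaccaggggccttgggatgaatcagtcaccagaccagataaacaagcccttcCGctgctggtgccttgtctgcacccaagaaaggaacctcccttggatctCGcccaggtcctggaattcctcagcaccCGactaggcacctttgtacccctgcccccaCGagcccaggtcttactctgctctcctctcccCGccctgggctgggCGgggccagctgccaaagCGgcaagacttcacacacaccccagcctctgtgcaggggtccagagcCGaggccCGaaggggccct
Slc6a20a: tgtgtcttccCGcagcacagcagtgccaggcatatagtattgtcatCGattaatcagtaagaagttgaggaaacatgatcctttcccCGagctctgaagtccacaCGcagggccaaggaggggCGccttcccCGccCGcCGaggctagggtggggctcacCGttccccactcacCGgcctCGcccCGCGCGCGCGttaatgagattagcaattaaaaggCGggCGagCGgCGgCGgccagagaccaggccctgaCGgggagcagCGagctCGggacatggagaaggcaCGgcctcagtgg
They stand at chr12:104112474-104112773 on the plus strand for Serpina3a, chr12:104127746-104128045 on the plus strand for Serpina3b, chr6:128788592-128788891 on the minus strand for Klrb1c, chr4:135727909-135728208 on the plus strand for Il22ra1 and chr9:123678783-123679082 on the minus strand for Slc6a20a. The Klrb1c promoter holds a single CG, and that of Slc6a20a holds 25.

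The receptor gene Il22ra1 had the smallest change of the set. Its region at chromosome 4, 135724501 to 135728000 (mm10), was 3.5 kb wide. The authors' deposited table calls it up, by 0.80 on the log2 scale (1.75-fold) at an FDR of 0.0436. All 10 of its windows were counted as up in the authors' deposited table, where a window is a short stretch tested on its own before windows are joined to a region. Each log2 fold change and rank by size in this text is that of a region's representative window, not an average over the region. The Il22ra1 region ended 158 bases short of the RefSeq gene, and the table annotates it as the Il22ra1 promoter, with no other gene named. The gene runs on from 135728159 to 135755383, and none of its body was covered. Ifnlr1, which encodes the receptor chain for lambda interferons and belongs to the same receptor family, ends 16.3 kb before the region and was not named. By size the region ranked 255 of 258 up regions, and 40 of the 378 regions had a higher FDR in the authors' deposited table. It is thus the member nearest to the threshold from the inside, and regions just outside are not in the list. The nearest changed regions on either side were 5.14 Mb away at Nkain1 and 2.71 Mb away at Camk2n1 and Mul1, so the Il22ra1 region stood alone.

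Of 23 ligands, receptors and signal transducers of the IL-22 and IL-10 family, Il22ra1 was the only gene named at a changed region, and it is a member by choice. For comparison, 0.909% of 21900 RefSeq protein-coding genes were named at an up region and 0.397% at a down region. None of 19 epithelial genes that respond to IL-22, such as Reg3b, Reg3g and Lcn2, was named in either direction. The table holds no gene that missed the threshold. These genes thus had no change past it, no region tested, or a listed region nearby that does not name them.

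The change at the integrin gene Itgb6 lay inside the gene, far from its start. The Itgb6 region at chromosome 2, 60652251 to 60654250, was 2.0 kb wide, and all 5 of its windows were up. By the authors' deposited table its log2 fold change was 1.34 (2.53-fold), at an FDR of 0.00311. It ranked 12 of 258 up regions by size. The table annotates an Itgb6 exon and names no other gene. RefSeq places Itgb6 on the minus strand from 60598292 to 60722603, so the region covered 1.61% of the gene body and lay 68.4 kb from the first start site. A second RefSeq start lay 19.4 kb away, and neither start was inside a changed region. The next changed regions were 25.3 Mb away at Stom and 2.53 Mb away at Kcnh7, and the one at Kcnh7 was down. Itgb6 was the only one of 28 integrin subunit genes, and the only one of 16 genes for latent TGF-beta and its activation, at a changed region. Its partner Itgav and the other epithelial activator Itgb8 were not named. Of all protein-coding genes, 0.909% were named at an up region and 0.397% at a down region.

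The protease inhibitor genes lay at the widest regions of the set, an overlapping pair. The first, at chromosome 12, 104092501 to 104121500, was 29.0 kb wide. By the authors' deposited table the log2 fold change of its representative window was 1.17 (2.25-fold), and the FDR of the region was 8.83e-05. This first region is assigned to the promoter and exons of Serpina3a and also of Serpina5, which encodes the protein C inhibitor. The second, at 104120001 to 104148500, was 28.5 kb wide, and the authors' deposited table gives it 1.35 on the log2 scale (2.55-fold), at an FDR of 0.016. It is assigned to the promoter and exons of Serpina3b and to exons of Serpina3a and Serpina3c. The regions overlapped by 1500 bases, at the end of Serpina3a, so they are 1 stretch of chromatin and not independent observations. The order of the regions depended on the measure: the second ranked 10 and the first 28 by size among 258 up regions, while by FDR the first ranked 20 and the second 123, in the authors' deposited table.

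The regions took in the serpin genes to different extents. RefSeq places Serpina5 (104099313 to 104106138), Serpina3a (104112724 to 104121896) and Serpina3b (104127986 to 104139546) wholly within the pair of regions, with their start sites. Serpina3c (104146907 to 104153929), on the opposite strand, had 22.7% of its body covered, at its 3′ end, and its start site lay 5.37 kb outside. The authors' deposited table counts 51 of 164 windows (31.1%) of the first region and 63 of 162 (38.9%) of the second as up, and 0 as down in either, where the median up region had 72.2%. What a window needs to be counted is not stated, so the remaining windows may also have changed. About as much lay between genes as within them: 46.2% of the first and 47.2% of the second region were outside RefSeq genes. The flanking changed regions were 608.5 kb to the left, with no gene named, and 765.5 kb to the right at Syne3, both up. From 25 serpin clade A genes, 4 were named at up regions and 0 at down regions, the 3 chosen ones and Serpina5. All 4 were named at this overlapping pair of regions, so they are not independent. Over all RefSeq protein-coding genes, 0.909% were named at an up region and 0.397% at a down region. None of 32 serpins of other clades was named.

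The natural killer receptor genes were the only members at down regions. The 19.0 kb region at chromosome 6, 128767001 to 128786000, had 57 of 97 windows down, and the authors' deposited table gives it -1.28 on the log2 scale (0.413-fold), at an FDR of 5.24e-05. The 8.5 kb region at 128786501 to 128795000 had 18 of 28 windows down, and in that same authors' deposited table its log2 value was also -1.28 (0.413-fold), at an FDR of 1.85e-05. They ranked 4 and 3 of 120 down regions by size. A gap of 500 bases separates them, and their representative windows carry the numbers 784320 and 784322 in the authors' deposited table, so that 1 window of that set stands between them. They are neighbouring readings of 1 locus. The nearest other changed regions were 1.05 Mb to the left at Prmt8 and 3.52 Mb to the right at Prpmp5, and both were up.

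Klrb1c rather than Klrb1b occupies this locus in RefSeq. The regions together covered 95.1% of Klrb1c (128778485 to 128788641, minus strand), and the right one held its start site and whole promoter. Klrb1b (128813706 to 128826315, minus strand) lies 18.7 kb beyond the right region, with its first start site 31.3 kb away and the noncoding gene Gm34755 in between. The table nevertheless assigns an exon and an intron of Klrb1b to the regions. Whether the authors' annotation held a longer Klrb1b transcript was not examined. Much of each region lay outside RefSeq genes, 60.4% of the left and 74.8% of the right one. Among 42 genes of the natural killer gene complex, Klrb1c and Klrb1b were named at down regions and 0 at up regions, while the neighbours Klrb1, Clec2h and Clec2i were not named. Both names come from the same neighbouring regions. The share of all protein-coding genes was 0.397% at a down region and 0.909% at an up region.

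Ccr9 shared its region with a transporter gene and is far from it in RefSeq. The region at chromosome 9, 123671501 to 123689000, was 17.5 kb wide, with 75 of 96 windows up. By the authors' deposited table its log2 fold change was 1.37 (2.59-fold), at an FDR of 2.80e-07. It ranked 8 of 258 up regions by size. It is assigned to the promoter and exons of both Slc6a20a and Ccr9. The RefSeq pseudogene Gm10052 (123688848 to 123690275) overlaps the right end of the region and is not named. RefSeq places the start of Slc6a20a (123636907 to 123678832, minus strand) in the region, but Ccr9 (123767211 to 123783457) begins 78.2 kb to the right, beyond Lztfl1. Next to it on the left, 1.5 kb away, stood an up region in Slc6a20a, and beyond that one at Slc6a20a and Slc6a20b, to which the authors' deposited table gives 1.60 and 1.43 on the log2 scale. By RefSeq positions, the region with the Ccr9 label is the end of a run of changed regions over the Slc6a20 genes. Whether the authors' annotation held a Ccr9 transcript that starts in this region was not examined. From 24 chemokine receptor genes only Ccr9 was named, and none of 13 gut homing and epithelial chemokine genes, Ccl25 among them, was. Beside these counts, 0.909% of all protein-coding genes were named at an up region and 0.397% at a down region.

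**Figure D1:**
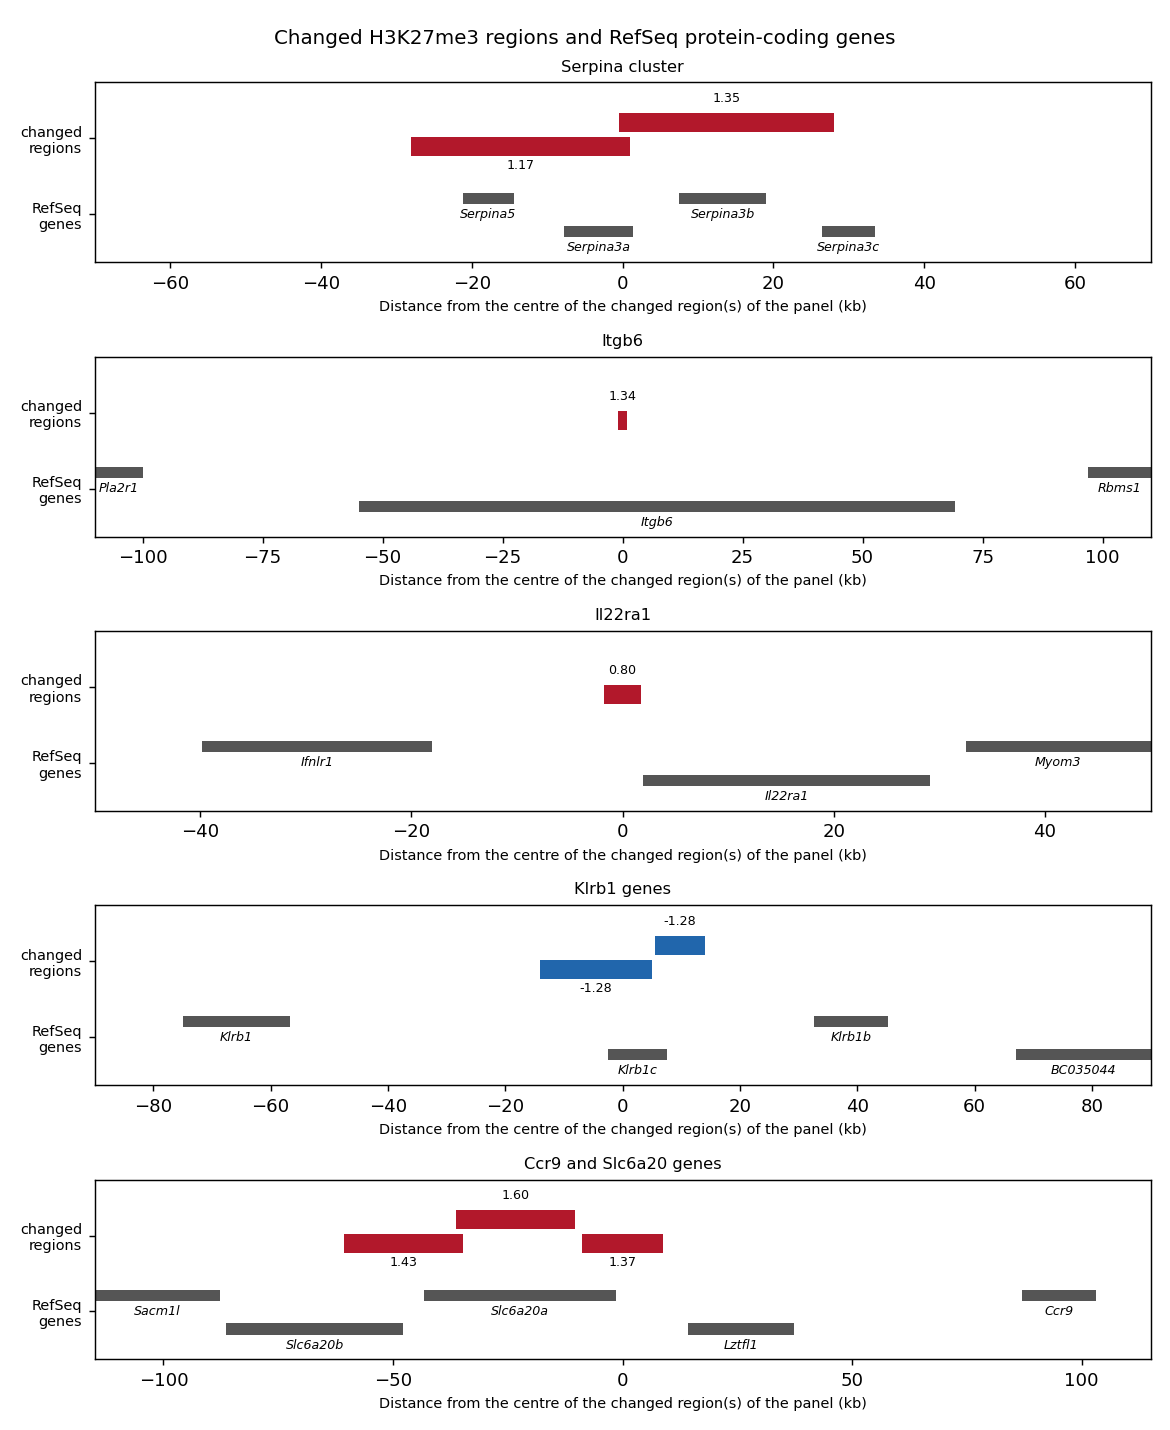
Changed regions (bars in the upper row, red for up and blue for down, with the log2 fold change of the representative window in the authors' deposited table) above RefSeq protein-coding genes (grey bars, cut off at the panel edges), against distance in kb from the centre of the panel's member regions. The regions cover Serpina5, Serpina3a, Serpina3b and most of Klrb1c, end just before Il22ra1, lie inside Itgb6, and leave Klrb1b and Ccr9 outside.

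Set side by side, the epithelial genes had 4 up and 0 down regions and the lymphocyte genes 1 up and 2 down. Regions under 100 kb apart count as 1 locus here, which leaves 3 epithelial loci, all up, and 2 lymphocyte loci, 1 up and 1 down. If only genes whose RefSeq body lies within 10 kb of the region are kept, Ccr9 and Klrb1b drop out and Klrb1c is the single lymphocyte gene left. A contrast between epithelial and lymphocyte genes thus rests on 1 lymphocyte locus. It cannot be tested, as the genes were chosen from these values. None of 28 lymphocyte marker genes, such as Ptprc, Cd3e and Ncr1, was named at a changed region in either direction, where 0.909% of all protein-coding genes were named at an up and 0.397% at a down region. Cd40lg, a T cell gene outside that list that was singled out after its values were seen, was named at a pair of overlapping up regions, to which the authors' deposited table gives 0.98 and 0.96 on the log2 scale. Of 21 gut epithelial marker genes 1 was named, Vil1, whose region the authors' deposited table calls up by 1.56 on the log2 scale. How many lymphocytes the crypt preparations held was not measured.

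**Figure D2:**
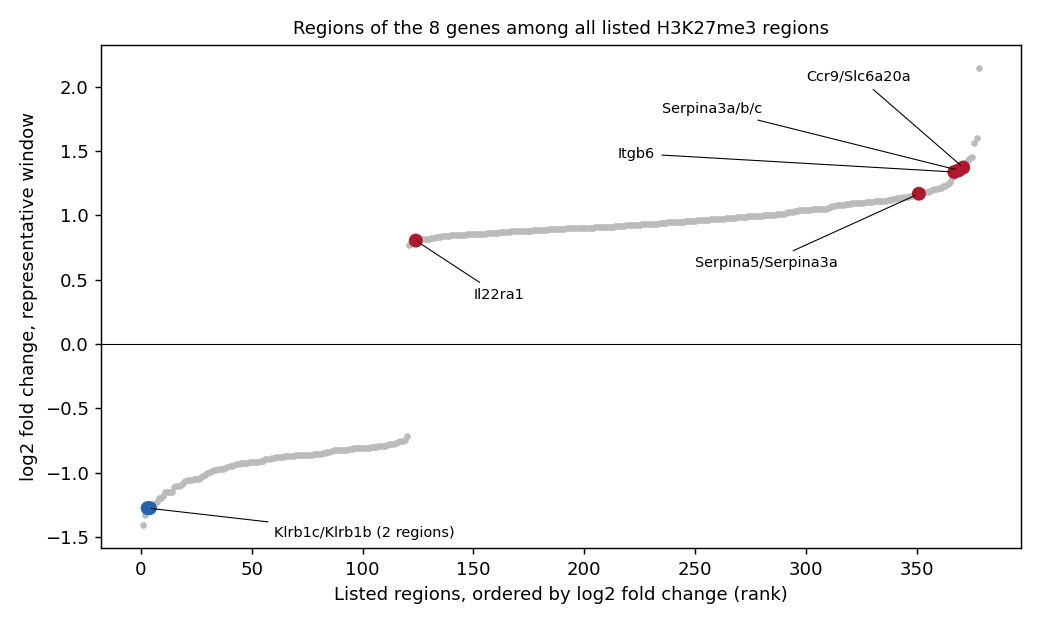
Log2 fold change of the representative window (vertical axis) of all 378 listed regions of the authors' deposited table, ordered by that value (horizontal axis, rank), with the 7 member regions in red (up) and blue (down). Il22ra1, at 0.80, sits at the low end of the up regions, and the others lie toward the ends, from 1.17 to 1.37 and at -1.28.

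The share of a region's windows that was counted as changed ran from 31.1% to 100% among the 7 regions in the authors' deposited table. It was 100% in the narrow regions at Itgb6 and Il22ra1, 78.1% at Ccr9 and Slc6a20a, and 58.8% and 64.3% at Klrb1c. Windows within a region overlap on the grid described at the end of this text, so they are not separate readings. The shares were not compared with those of regions of like width. No member region had a window counted in the other direction. The median share over all 378 regions was 71.0%. It was 72.2% over the 258 up regions and 64.3% over the 120 down regions.

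**Figure D3:**
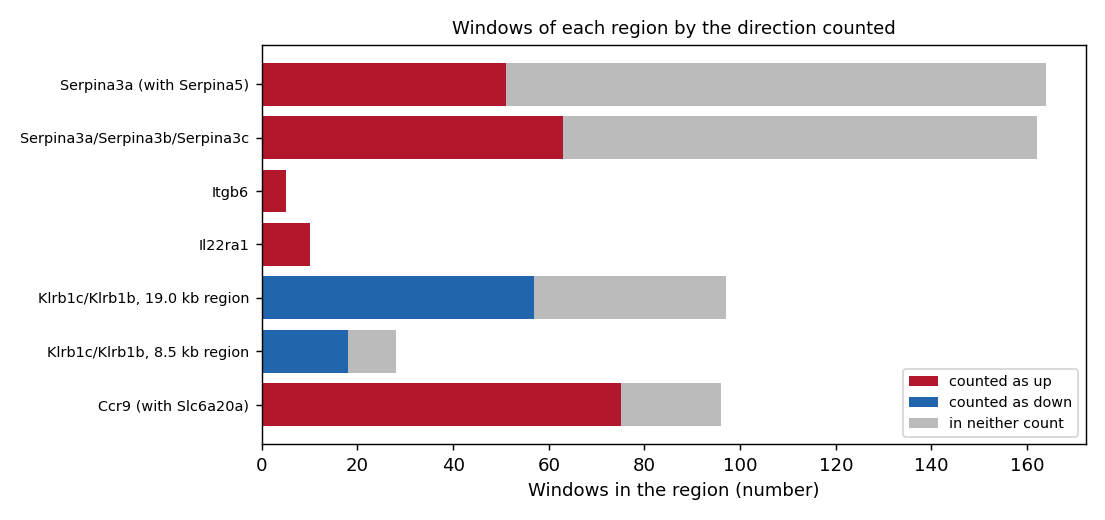
Number of windows (horizontal axis) in each member region of the authors' deposited table, split into those counted as up (red), counted as down (blue) and in neither count (grey). The serpin regions hold the most windows, 164 and 162, with 51 and 63 up, while all windows were up at Itgb6 and Il22ra1.

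The promoters of the set held from 1 to 12 CG dinucleotides, and 5 of the 8 were at or under the median of all promoters. Over 32851 RefSeq promoters of 300 bases the median was 7 CG, with quartiles of 3 and 20. Klrb1c and Serpina3c had 1 each, a number that 14.1% of promoters do not exceed. Ccr9 had 4, Serpina3b 5, Klrb1b 7, Serpina3a and Il22ra1 11 and Itgb6 12. All 8 lay below the upper quartile, whereas Slc6a20a, with 25, lay above it. GC content was 64.0% at Il22ra1 and from 44.3% to 51.3% in the other 7, against a median of 52.7% over all promoters.

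**Figure D4:**
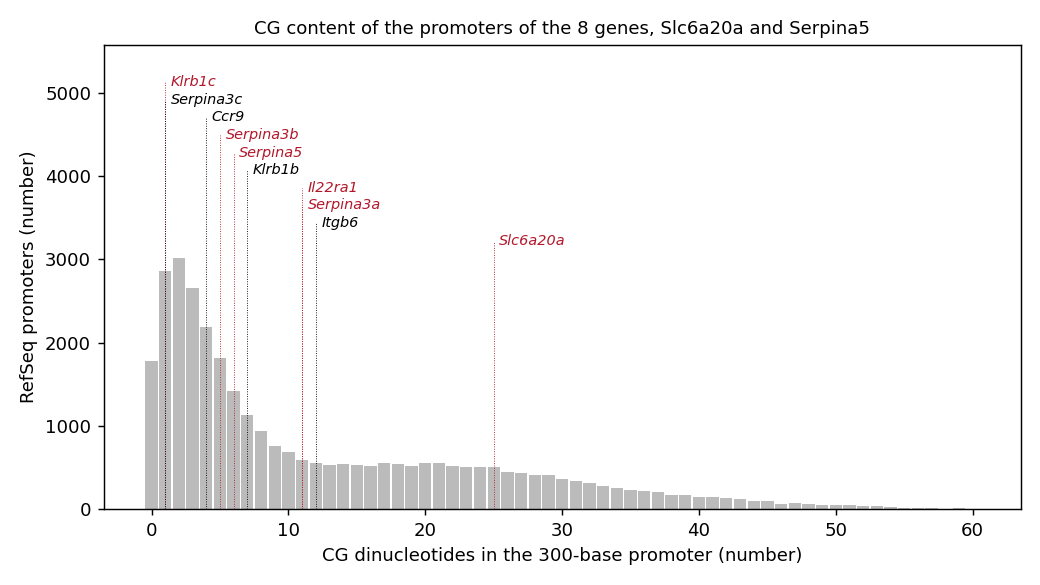
Number of RefSeq promoters (vertical axis) by their number of CG dinucleotides in 300 bases (horizontal axis), with dotted lines at the values of the 8 genes, Slc6a20a and Serpina5, in red where the promoter overlaps a member region. The genes run from 1 (Klrb1c, Serpina3c) to 12 (Itgb6), and Slc6a20a stands apart at 25.

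Short motifs were searched in the promoters as a description. The TATA box letters TATAAA, searched on both strands, occurred in 3 of the 8 promoters, those of Serpina3a, Serpina3b and Serpina3c, and in 13.6% of all RefSeq promoters. On the gene's strand the match began 29 bases before the start site in Serpina3a and 28 bases before it in Serpina3b, but 132 bases before it in Serpina3c. For Serpina3c the start site used was 104153872, while the RefSeq gene on the minus strand begins at 104153929. The distance there depends on the start chosen. A further match on the other strand in Serpina3a overlaps the first. The STAT letters TTCNNNGAA, which read the same on both strands, occurred in 0 of the 8 and in 8.30% of all promoters, which says only that these letters are not in these windows. Aligned end to end, the Serpina3b and Serpina3c promoters were 65.3% identical. Serpina3a was 47.0% identical to Serpina3b and 44.3% to Serpina3c, and Klrb1c was 43.8% identical to Klrb1b. Pairs from different families ranged from 38.8% to 48.0%. These include pairs with Slc6a20a and Serpina5, and Serpina5 was counted as a different family from the Serpina3 genes. The bodies of the Serpina3 and Klrb1 gene copies were not compared. How far reads from a Serpina3 or Klrb1 gene could be placed at another was therefore not tested.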

How the data were processed

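Samples, 4 control and 4 DKO, were grouped by their titles. Per the labels' protocols, formaldehyde-fixed chromatin was cut with micrococcal nuclease. The submitters' processing notes name Bowtie 0.12.7, SICER 1.0.3, Picard 1.141, SAMtools 1.11, FastQC 0.10.1, edgeR and the build mm10, without roles or settings. The file is the authors' deposited table of their comparison. Per the file headers it gives each region's p-value and FDR, counts of windows in all, up and down, and the log2 fold changes of the representative and the best window; that the base is 2 follows the usual output of such tools and is not stated. The table has 0 columns of per-sample values, so no count test could be run and the depth is unknown.

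Rows had 17 to 21 cells for 17 columns, since the gene fields hold unquoted commas; all were read, with the letters P, E and I as promoter, exon and intron. The number of regions tested was recovered from the p-values and FDRs by the Benjamini-Hochberg formula (largest relative difference 5.8e-15), a step tested on simulated data. Gene positions and promoters came from RefSeq on GRCm38.p6, the same build as mm10, matched by symbol for all 8 genes. Promoters were aligned globally with Biopython 1.88 (match 2, mismatch -1, gap opening -5, gap extension -0.5). Python 3.11.15, pandas 2.3.3 and matplotlib 3.10.9 were used. The text names the 8 genes, genes that share or lie beside their regions, listed genes that the table names, and the next changed regions. Some listed genes that the table does not name are given as examples. Cd40lg, with the genes that share its regions, was added after its values were seen. Members and gene lists were chosen with earlier results of these data known.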

Additional observations from a re-analysis of the deposited data

How the results depend on the processing

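Counts were repeated with FDR 0.01, a log2 change of 1 or more in size, RefSeq gene bodies within 10 kb, overlapping names only, merging of regions under 100 kb apart, and no windows of the other direction. Of 18 counts of member regions under these, 16 stayed within 1.5 times. Every member region named a member among its overlapping genes, and none had windows of the other direction. The counts under those settings could therefore not change. At FDR 0.01 the up regions numbered 3 of 5, without Il22ra1 and the second serpin region, and merging left 1 down locus of 2 regions, by construction. The log2 fold changes were also read from the best window. In 5 of the 7 regions its value equalled that of the representative window, so the repeat could not differ there. In the others the direction was the same, and by the authors' deposited table the log2 value differed by at most 0.0093. No paired analysis was possible because the table holds no value per sample, and for the same reason no replicate could be left out.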

Other observations

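The regions at Cd40lg, singled out after its values were seen, held few windows counted as changed. Cd40lg, which encodes the ligand that activated T cells present to CD40, was named at a pair of overlapping regions on the X chromosome, 57180501 to 57210000 and 57208501 to 57238000. Their log2 fold changes were 0.98 and 0.96, with FDRs of 0.0255 and 0.0294 in the authors' deposited table. Windows counted as up were 11 of 166 and 16 of 155 in the authors' deposited table. The left region is also assigned to Gm14718 and the right one to Arhgef6.

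The member regions differed in how many windows they held for their width. All 378 regions start on a 250-base grid, and the 15 regions of a single window were 1 kb (12 regions) or 2 kb (3 regions) wide. A grid of 1 kb windows every 250 bases and 2 kb windows every 500 bases holds at least as many windows as each of the 378 regions lists. Against it, the serpin regions were 97.6% and 98.2% filled, that at Ccr9 and Slc6a20a 97.0%, and the left Klrb1c region 89.8%. Itgb6 (83.3%), Il22ra1 (66.7%) and the right Klrb1c region with the promoter (62.2%) were filled less than the median region (89.3%). These are the narrowest member regions, at 2.0, 3.5 and 8.5 kb, where the median width of all regions was 13.4 kb. Fill was not compared among regions of like width or direction. The grid was read from the table and is not stated by the authors.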
